A study of Danio rerio with 12 samples.

Results

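The promoters of the hox genes were examined across the hox clusters and paralog groups of zebrafish embryos that lack functional supt16h. Members were the genes whose symbol in the deposited table of start sites reads hox, a cluster letter from a to d, a paralog number and a duplicate suffix a or b. The rule found 48 genes among 15267 named genes, in 49 windows, and for the gene with several windows, hoxc6b, the window with the highest mean signal over all libraries was kept. By letter, 12 genes belonged to hoxa, 15 to hoxb, 14 to hoxc and 7 to hoxd.

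The assay was ATAC-seq, which reads open chromatin from the places where the Tn5 transposase can insert adapters. Homozygous supt16h-/- mutant embryos were compared with wildtype siblings, all grown at 28°C and collected at 32 hours post fertilization (hpf). Supt16h is a subunit of FACT, a histone chaperone complex that loosens and reassembles nucleosomes as polymerases pass. The mutant allele is not named in the labels. Whole embryos were deyolked and dissociated and 50000 cells were used per library, so each value averages over all cell types of the embryo. The series text mentions 40 embryos without saying how they were divided, and gives 3 biological replicates in 2 technical repeats per group, 12 libraries in all. Values below are normalized log2 signal in a window of 4000 bp centred on the annotated start site (genome build GRCz10), averaged over the technical repeats, so that n = 3 in each group. All windows have the same length, so signal does not differ between genes through window length. Other influences on the level, such as neighbouring start sites within a window, were not corrected for. In whole embryos, a change in the share of cells with an open promoter and a change in openness within cells cannot be told apart.

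Hox genes encode homeodomain transcription factors that give cells their position along the head-to-tail axis. They lie in clusters in which the order of the genes follows the order of their expression domains: paralog groups with low numbers are used in the hindbrain and branchial region, central groups in the trunk, and groups with high numbers in the posterior trunk, tail and fins. Genes with the same number in different clusters are paralogs that descend from a shared ancestor, and zebrafish carry duplicated clusters, marked by the suffix, from a genome duplication in the fish lineage. Polycomb proteins keep hox genes closed outside their domains.

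The members covered 7 clusters. The hoxaa cluster (chromosome 19, 20154561 to 20215166) had 7 measured genes, hoxab (chromosome 16, 21088085 to 21122854) had 5, hoxba (chromosome 3, 23521685 to 23640357) had 11, and hoxbb (chromosome 12, 27024249 to 27051780) had 4. hoxca (chromosome 23, 35952141 to 36081301) had 11 genes, hoxcb (chromosome 11, 2100749 to 2213057) had 3 and hoxda (chromosome 9, 1936293 to 1991514) had 7. Because the genes are packed closely, some windows share sequence and are not independent. The windows of hoxb6b and hoxb5b shared 1399 bp, those of hoxc6a and hoxc5a 798 bp, those of hoxc10a and hoxc3a 232 bp, those of hoxb8a and hoxb7a 122 bp, and those of hoxb6a and hoxb5a 4 bp. Of the annotated starts, those of hoxb3a and hoxc3a did not lie in the place their number gives. The hoxb3a start lay between those of hoxb7a and hoxb6a, and the hoxc3a start between those of hoxc10a and hoxc9a.

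In both groups, promoter signal was higher at low paralog numbers. Signal over all libraries ranged from 9.33 at hoxa3a, of the caudal hindbrain and pharyngeal arches, and 9.01 at hoxa2b, which patterns the second pharyngeal arch, down to 6.98 at hoxb13a and at hoxc13b. The median over all tested windows of the genome was 7.40. Across the 48 genes the paralog number and the mean signal had a Spearman rho of -0.76, given as a description because the genes share libraries and some share window sequence. Median signal was 8.43 for paralog groups 1 to 3, 8.10 for groups 4 to 8 and 7.605 for groups 9 to 13. Within groups 9 to 13 the range was wide, from 6.98 to 8.45 at hoxc9a.

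**Figure D1:**
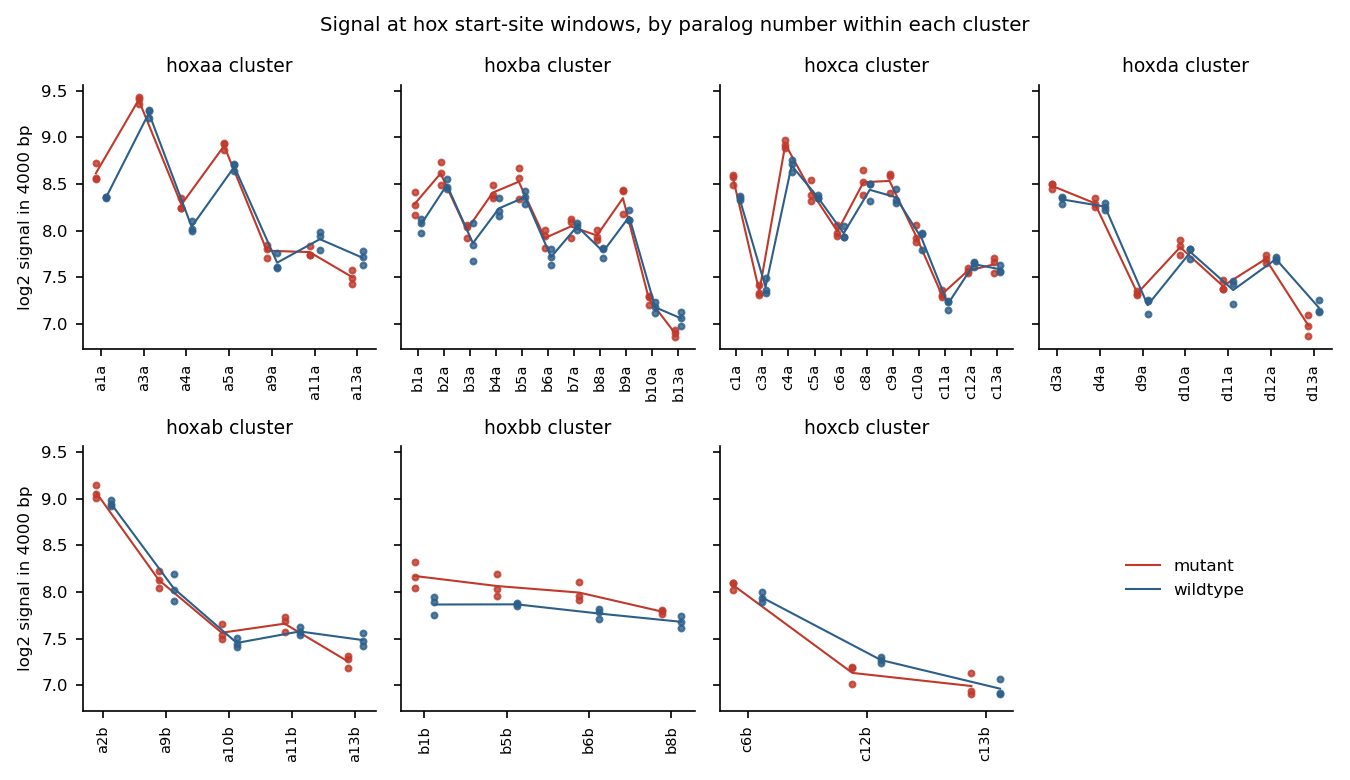
Log2 signal in the 4000 bp start-site window of each hox gene, ordered by paralog number within each of the 7 clusters, with 1 point per biological replicate and lines through the means of 3 mutant (red) and 3 wildtype (blue) replicates. Signal is highest at hoxa3a (9.33) and lowest at the hoxb13a and hoxc13b windows (6.98), and the mutant points of the hoxbb cluster lie above the wildtype points at every gene.

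Mutant and wildtype embryos differed at few hox promoters when the replicates were treated as unpaired. In limma with Benjamini-Hochberg adjustment over 15431 tested windows, 2 of 48 hox genes were higher in the mutants, hoxb1b and hoxa1a, and none was lower. Over all tested windows 8.02% were higher and 3.58% lower, against 4.17% of the hox genes called higher. At an unadjusted p under 0.05, 13 hox genes were higher and 4 lower (27.1% and 8.33%), against 14.2% and 10.6% of all windows. Of the hox genes, 11 higher by the library columns and 2 lower had an adjusted p under 0.05 in the authors' deposited table. All windows gave 12.1% and 7.17%, counted in the same way. The fold changes of that table point the other way at these genes, as given below. Mutant and wildtype samples of the same replicate number deviated together, and with the replicate number as a block limma called 10 hox genes higher and 2 lower. Those were 20.8% and 4.17% of the members, against 14.0% and 9.47% of all windows. With the 12 libraries kept apart, 11 were higher and 3 lower, against 11.9% and 7.38% of all windows. That fit counts technical repeats as independent samples, which they are not.

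The log2 fold change in the authors' deposited table ran the other way from mutant minus wildtype at 46 of 48 hox genes, and at hoxb7a and hoxd12a, where the signs matched, both values were near 0. The reversal was not particular to hox genes. It was found at all 2977 tested windows with an adjusted p under 0.05 in the authors' deposited table. The library columns name their group, so their names set every direction given here, and each direction would turn round if the names were swapped. The fold changes in the authors' deposited table were also larger in size, at -0.46 for hoxb1b and -0.38 for hoxa1a, than the differences of 0.31 and 0.26 between the library columns.

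The difference, mutant minus wildtype, was above 0 at 39 of 48 hox genes, and at 45.3% of all tested windows. Its median over the hox genes was 0.11 on the log2 scale (1.08-fold), against -0.02 over all windows. It ranged from -0.23 at hoxa13b to 0.31 at hoxb1b. At 18 hox genes (37.5%) all 3 mutant replicates lay above all 3 wildtype replicates, and at 6 (12.5%) they lay below, where all tested windows gave 15.5% and 14.0%. The median size of a hox difference, whatever its sign, was 0.13, its median SE was 0.08 and the median SD between biological replicates of a group was 0.07. The median SD between technical repeats was 0.09, so the spread between replicates includes technical spread.

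As deposited, differences were higher at low paralog numbers. Groups 1 to 9 held 31 genes, of which 29 had a difference above 0, and 17 had all mutants above all wildtype samples and none below. Groups 12 and 13 held 9 genes, of which 6 had a difference below 0, with all mutants below all wildtype samples at each of these 6. Of all tested windows, 15.5% had all mutants above and 14.0% had all mutants below. In the signal range of group 13, only 38.4% of all tested windows had a difference above 0. The 8 genes of groups 10 and 11 lay between, at a median of 0.07. These cuts were not among the planned ranges. Over the planned ranges the median difference was 0.14 for groups 1 to 3, 0.17 for 4 to 8 and 0.05 for 9 to 13. In groups 9 to 13, 15 of 22 genes had a difference above 0. Spearman's rho between paralog number and difference was -0.70 over the 48 genes, and -0.59 over the 42 genes outside group 13. It was -0.89 among the 12 hoxa genes, -0.49 among the 15 hoxb genes, -0.45 among the 14 hoxc genes and -0.79 among the 7 hoxd genes. By same-numbered pairs of replicates, 23 of 48 genes had the mutant higher in all 3 pairs, among them all 4 of group 1. At 7 genes no pair had the mutant higher, among them 4 of group 13. Pairs were not counted over all tested windows, so whether these counts are unusual cannot be told. The coefficients describe genes that share the same 12 libraries, and they carry no test. After cyclic loess normalization each of them was weaker, as given below.

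**Figure D2:**
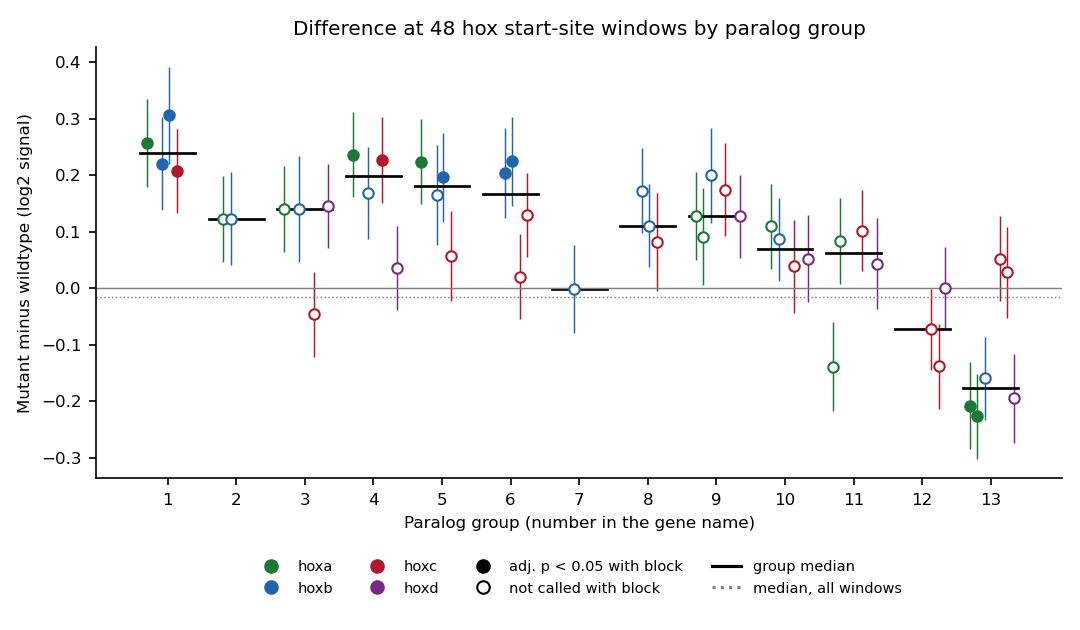
Difference in log2 signal, mutant minus wildtype, with its standard error from limma, for each of 48 hox genes by paralog group, coloured by cluster letter, filled where limma with the replicate block gave an adjusted p under 0.05. Black bars are group medians, which lie at 0.24 in group 1 and at -0.18 in group 13, and the dotted line is the median over all tested windows (-0.02).

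Paralog group 1 holds the most anterior hox genes, which pattern the hindbrain segments. All 4 measured members had the mutants above the wildtype samples without overlap, as did 15.5% of all tested windows. Their median difference was 0.24 (1.18-fold). hoxb1b, which acts early in the segmentation of the zebrafish hindbrain (chromosome 12, 27047780 to 27051780), had 8.16, 8.04 and 8.32 in the mutants, against 7.90, 7.75 and 7.95 in the wildtype samples. It rose by 0.31 ± 0.09 (SE, 1.24-fold, limma adjusted p = 0.0278, and 0.0021 with the replicate block). The lowest mutant value lay above the highest wildtype value by less than the range within either group. hoxa1a (chromosome 19, 20211166 to 20215166) had 8.56, 8.56 and 8.73 in the mutants and 8.36, 8.35 and 8.36 in the wildtype samples. It rose by 0.26 ± 0.08 (SE, 1.195-fold, limma adjusted p = 0.0381, and 0.0071 with the block).

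Both calls of the fit without the block were lost on leaving out single replicates. The calls with the block were not tested in this way. Without the block, hoxb1b fell short once mutant replicate 3 was left out (limma adjusted p = 0.143), or wildtype replicate 1 (0.0766) or 2 (0.144). hoxa1a fell short without mutant replicate 2 (0.0511) or 3 (0.176), or without wildtype replicate 1 (0.102), 2 (0.125) or 3 (0.105), and also after quantile normalization (0.074) and after cyclic loess normalization (0.0667).

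The remaining members of group 1 were called with the block alone. hoxb1a, which gives the fourth hindbrain segment its identity, had 8.16, 8.27 and 8.42 in the mutants and 8.08, 7.98 and 8.13 in the wildtype samples, a difference of 0.22 ± 0.08 (SE, limma adjusted p = 0.099, and 0.0226 with the block). hoxc1a, a paralog kept in fish, had 8.59, 8.49 and 8.58 in the mutants and 8.32, 8.35 and 8.37 in the wildtype samples, a difference of 0.21 ± 0.07 (adjusted p = 0.0824, and 0.0211 with the block). At both genes the groups did not overlap, by 0.04 at hoxb1a.

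Groups 2 and 3, of the hindbrain and branchial arches, passed neither test. hoxa2b and hoxb2a both differed by 0.12. hoxa3a, hoxb3a and hoxd3a differed by 0.14, 0.14 and 0.15, and hoxc3a, whose annotated start lies among posterior genes, by -0.05. hoxd3a, the hoxd gene with the highest difference, had 8.497, 8.49 and 8.45 in the mutants and 8.36, 8.29 and 8.35 in the wildtype samples (0.15 ± 0.07, SE, limma adjusted p = 0.236, and 0.0947 with the block). Its groups did not overlap. hoxb3a had the widest spread among them, with mutants at 7.92, 8.06 and 8.04 and wildtype samples at 8.08, 7.84 and 7.68.

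Groups 4 to 8 are used from the caudal hindbrain through the trunk. Of 16 genes, 15 had a difference above 0, the median was 0.17, and none was called without the block. With the block 6 were higher (37.5%). Of all tested windows, 8.02% were called higher without the block and 14.0% with it. hoxa4a had 8.24, 8.25 and 8.34 in the mutants, against 7.999, 8.02 and 8.11 in the wildtype samples, a difference of 0.24 ± 0.08 (SE, limma adjusted p = 0.0512, and 0.0102 with the block). hoxa5a had 8.86, 8.93 and 8.93 in the mutants, against 8.71, 8.64 and 8.70 in the wildtype samples (0.22 ± 0.07, adjusted p = 0.0614, and 0.0131 with the block). hoxc4a, the hoxc gene with the highest difference, had 8.89, 8.92 and 8.97 in the mutants, against 8.75, 8.71 and 8.63 in the wildtype samples (0.23 ± 0.08, adjusted p = 0.0626, and 0.0147 with the block). At all 3 genes the lowest mutant lay more than 0.1 above the highest wildtype sample.

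hoxb6b and hoxb5b, whose windows overlap, had differences of 0.22 and 0.20. hoxb6b had 7.91, 7.96 and 8.11 in the mutants and 7.82, 7.71 and 7.78 in the wildtype samples (limma adjusted p = 0.0759, and 0.0221 with the block). hoxb5b had 7.96, 8.04 and 8.20 in the mutants and 7.88, 7.88 and 7.85 in the wildtype samples (adjusted p = 0.125, and 0.0446 with the block). In both, mutant replicate 3 was the highest sample. hoxb6a had 7.82, 8.004 and 7.94 in the mutants and 7.80, 7.72 and 7.63 in the wildtype samples (0.20 ± 0.08, SE, adjusted p = 0.113, and 0.0461 with the block), and its lowest mutant lay just above its highest wildtype sample.

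The other 10 genes of groups 4 to 8 passed neither test, with differences from -0.00 at hoxb7a to 0.17 at hoxb4a and hoxb8a. hoxc5a, hoxc6a and hoxd4a lay at 0.06, 0.02 and 0.04. The window kept for hoxc6b differed by 0.13 ± 0.07 (SE, limma adjusted p = 0.3). Its other annotated start (chromosome 11, 2104905 to 2108905), with a lower signal, rose by 0.28 ± 0.08 (adjusted p = 0.0319, and 0.0092 with the block). Without the block that call was lost without mutant replicate 2 (0.079) or 3 (0.0691) and without wildtype replicate 2 (0.159) or 3 (0.125). There the mutants had 7.84, 7.91 and 7.84, against 7.74, 7.48 and 7.52 in the wildtype samples.

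**Figure D3:**
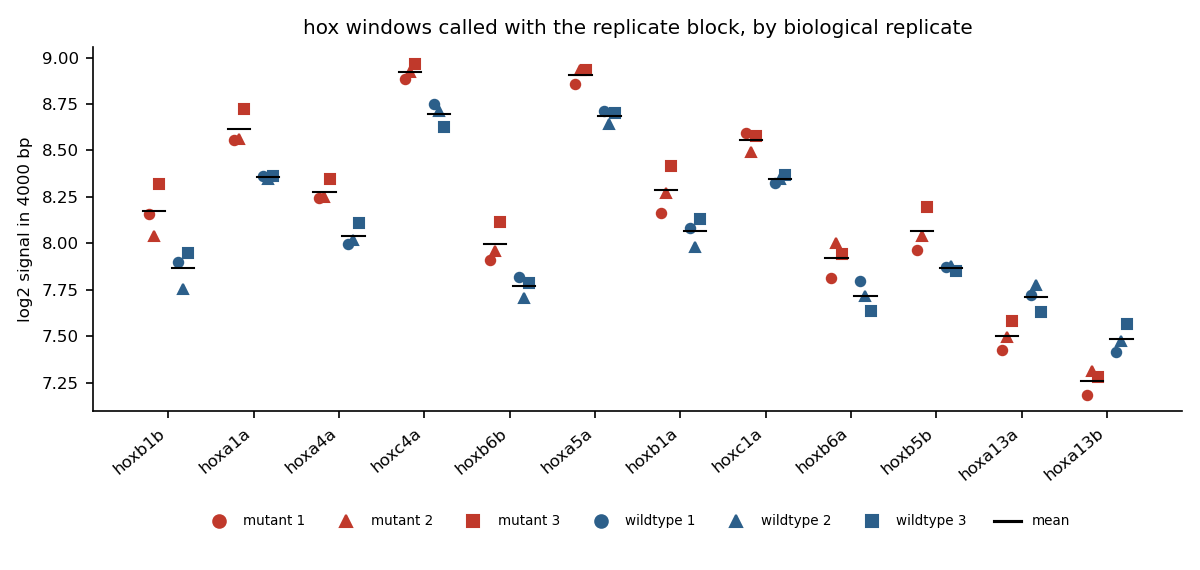
Log2 signal of each biological replicate (mean of 2 technical repeats) at the 12 hox windows that limma called with the replicate block, with mutants (red) left of wildtype samples (blue), a black bar at each mean and the marker shape giving the replicate number. The groups do not overlap at any of the 12, with mutants above at 10 genes and below at hoxa13a and hoxa13b.

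Group 13 holds the most posterior genes, active in the tail, the hindgut and the fin folds. Of its 6 members, hoxa13a, hoxa13b, hoxb13a and hoxd13a had all mutants below all wildtype samples, as did 14.0% of all tested windows. The hoxc members hoxc13a and hoxc13b did not, at 0.05 and 0.03. hoxa13b (chromosome 16, 21088085 to 21092085) had 7.19, 7.32 and 7.28 in the mutants, against 7.42, 7.48 and 7.57 in the wildtype samples. That is a difference of -0.23 ± 0.08 (SE, 0.855-fold, limma adjusted p = 0.0614, and 0.0167 with the block). hoxa13a (chromosome 19, 20154561 to 20158561) had 7.43, 7.50 and 7.58 in the mutants, against 7.72, 7.78 and 7.63 in the wildtype samples, a difference of -0.21 ± 0.08 (adjusted p = 0.0917, and 0.0369 with the block). Both genes act in the formation of fin rays in zebrafish.

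hoxd13a, which acts with them in the fin, had 6.87, 6.98 and 7.09 in the mutants, against 7.26, 7.14 and 7.13 in the wildtype samples (-0.19 ± 0.08, SE, limma adjusted p = 0.126, and 0.0593 with the block). hoxb13a had 6.86, 6.91 and 6.94 in the mutants, against 7.13, 7.07 and 6.98 in the wildtype samples (-0.16 ± 0.07, adjusted p = 0.186, and 0.0903 with the block). In both the gap between the groups was 0.05 or less, and neither passed. By same-numbered pairs, mutant minus wildtype at hoxa13a was -0.29, -0.28 and -0.05, and at hoxb13a -0.27, -0.16 and -0.04, so the third pair differed least. At hoxa13b the pairs gave -0.23, -0.16 and -0.29.

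In the other posterior groups no gene passed either limma test. All 5 members of group 9, of the trunk, and all 4 of group 10 had differences above 0, at medians of 0.13 and 0.07, with hoxb9a at 0.20 ± 0.08 (SE, limma adjusted p = 0.146). In group 11, hoxa11a, of the fin and posterior trunk, lay at -0.14 with overlapping groups, and hoxa11b, hoxc11a and hoxd11a lay at 0.08, 0.10 and 0.04. In group 12, hoxc12b had 7.19, 7.02 and 7.19 in the mutants, against 7.31, 7.24 and 7.27 in the wildtype samples (-0.14 ± 0.08, adjusted p = 0.277, and 0.128 with the block). hoxc12a lay at -0.07 and hoxd12a at 0.00.

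By cluster letter, median differences were 0.12 for hoxa, 0.17 for hoxb, 0.05 for hoxc and 0.04 for hoxd. These medians moved when 1 replicate was left out. hoxa was 0.08 without mutant replicate 2. hoxc was 0.10 without mutant replicate 1 and 0.03 without wildtype replicate 3. hoxd was 0.02 without mutant replicate 2 or wildtype replicate 3, and 0.07 without wildtype replicate 1 or 2. After cyclic loess normalization the medians of hoxc and hoxd stood in the other order, at 0.05 and 0.06. With the block, 3 hoxa genes were called higher (25%) and 2 lower (16.7%). Of hoxb 5 genes (33.3%) and of hoxc 2 genes (14.3%) were called higher, and no hoxd gene was called. All tested windows gave 14.0% higher and 9.47% lower, so the share of hoxc was near that of all windows. The letters hold few genes, only 7 in hoxd, and their counts were not compared by a test. The median signal over the hoxb genes was 7.92, 8.04 and 8.12 in the mutants, against 7.90, 7.84 and 7.85 in the wildtype samples, and the groups did not overlap. Over hoxa it was 7.89, 8.03 and 7.99 in the mutants, against 7.99, 7.98 and 7.85, over hoxc 7.91, 7.95 and 8.06, against 7.96, 7.95 and 7.84, and over hoxd 7.65, 7.70 and 7.74, against 7.67, 7.72 and 7.70 in the wildtype samples. For these 3 letters the groups overlapped.

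Each letter holds another mix of paralog numbers, so the letters cannot be compared alone. hoxb has 1 gene of groups 12 and 13, and hoxc has 4. Among duplicated clusters, all 4 genes of hoxbb had mutants above wildtype samples without overlap, at a median difference of 0.21. The windows of hoxb6b and hoxb5b share 1399 bp, so these genes are not independent. Of the 11 hoxba genes 3 (27.3%) had mutants above without overlap, at a median difference of 0.16. Over all tested windows the share was 15.5%. hoxbb holds no gene above number 8. Where both duplicates of a number were measured, the pair differed alike in some cases (hoxb6a and hoxb6b at 0.20 and 0.22, hoxa13a and hoxa13b at -0.21 and -0.23, hoxb5a and hoxb5b at 0.16 and 0.20) and less so in others (hoxa11a and hoxa11b at -0.14 and 0.08, hoxc6a and hoxc6b at 0.02 and 0.13). The difference between the members of a pair was not tested.

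**Figure D4:**
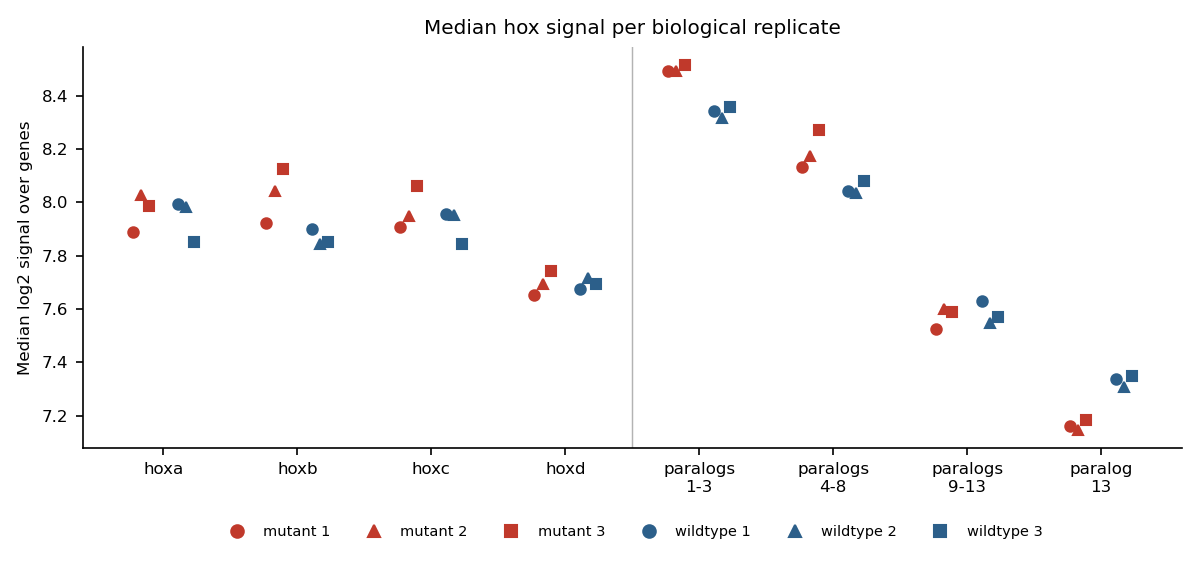
Median log2 signal over the hox genes of each cluster letter (left) and of paralog ranges (right) in each biological replicate, with mutants (red) left of wildtype samples (blue). Groups do not overlap for hoxb, for paralogs 1 to 3, for paralogs 4 to 8 and for paralog 13, where mutants lie at 7.15 to 7.19 and wildtype samples at 7.31 to 7.35.

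The signal level moved with the paralog number, and across the genome differences also moved with the level. All 5472 tested windows with a mean signal of 8 or more had a median difference of 0.07, with 66.8% above 0, and the 21 hox genes at that level had 0.16, with 20 above 0. The hox genes of group 13 lay between 6.98 and 7.61. All 2333 tested windows in that range had a median difference of -0.04, with 38.4% above 0, against 2 of the 6 hox genes of group 13. The 8 other hox genes in that range had a median of 0.06 and differences from -0.14 to 0.13, with 5 above 0. Over the 48 genes the difference had a Spearman rho of 0.61 with the mean signal. After cyclic loess normalization, which makes libraries alike at each signal level, the rho with mean signal was 0.28 and that with paralog number -0.48. The rho with paralog number was -0.33 over the 42 genes outside group 13. By letter it was -0.60 for hoxa, -0.39 for hoxb, -0.24 for hoxc and -0.54 for hoxd. The medians after that normalization were 0.20 for group 1 and -0.13 for group 13, with 39 genes still above 0 and 9 below. Between these groups the medians did not fall evenly with the number. Groups 2 and 3 lay at 0.05 and 0.06, below groups 9, 10 and 11 at 0.14, 0.09 and 0.09. Over the planned ranges the medians were 0.12 for 1 to 3, 0.13 for 4 to 8 and 0.07 for 9 to 13. Limma after that normalization called hoxb1b (adjusted p = 0.0386) and no other hox gene, where 6.56% of all windows were called higher and 4.58% lower. Together with the block, a combination chosen after seeing the data, it called 7 hox genes higher and 1 lower, hoxa13b (adjusted p = 0.0398), against 11.2% and 9.56% of all windows. The block calls of hoxa5a (0.0921), hoxc4a (0.0967), hoxc1a (0.0695) and hoxa13a (0.0578) were lost there.

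**Figure D5:**
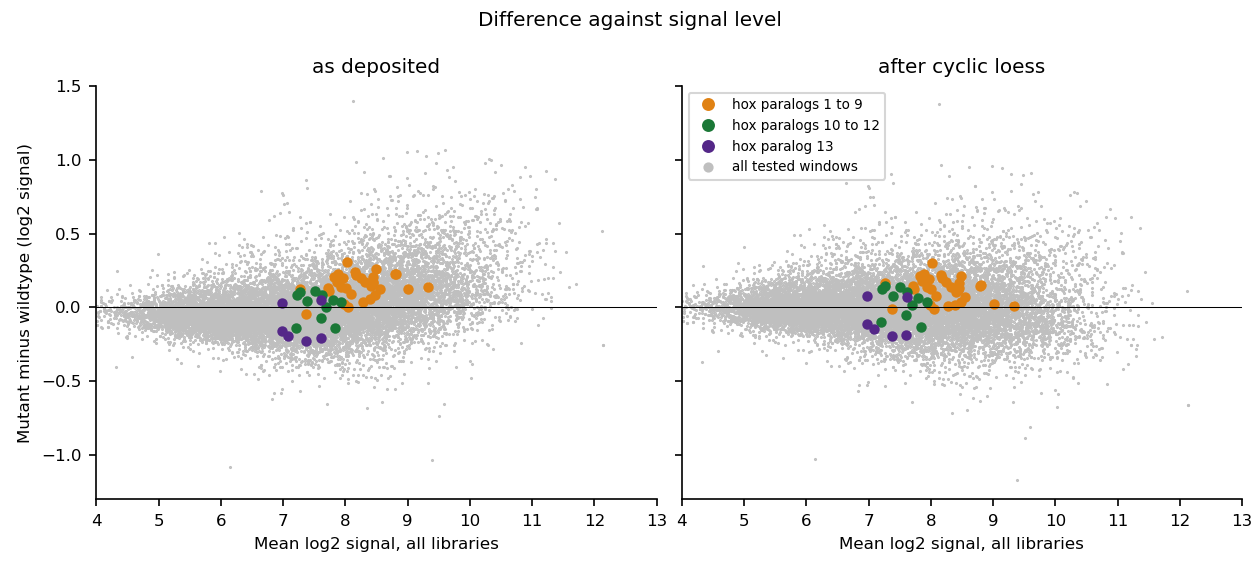
Difference in log2 signal, mutant minus wildtype, against the mean log2 signal over all libraries, for all 15431 tested windows (grey) and for hox genes of paralog groups 1 to 9 (orange), 10 to 12 (green) and 13 (purple). As deposited (left) the grey cloud rises above 0 at high signal. After cyclic loess normalization (right) the medians are 0.20 for group 1, 0.05 for group 2, 0.06 for group 3, 0.14 for group 9 and -0.13 for group 13.

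Other start sites inside and beside the clusters gave a comparison. Within the clusters or up to 100 kb beyond their ends lay 31 other tested windows, with a median difference of 0.03, 17 above 0 and 14 below. With the block 2 of them were called higher and 1 lower, where 14.0% and 9.47% of all tested windows were. No microRNA gene within the clusters passed either test. mir10a, mir10c and mir10b-2, beside hox genes of groups 4 and 5, had differences of 0.16, 0.15 and 0.11, and mir10b-1, in hoxda, 0.06. Most of these windows share sequence with hox windows, as mir10c does with hoxb4a (2843 bp), mir10b-2 with hoxc4a (2946 bp) and mir10b-1 with hoxd4a (1971 bp). mir196a-1 had -0.05, as did hoxc3a, with which it shares 3206 bp. mir196a-2, mir196b and mir196d had -0.04, -0.06 and -0.03, while the group 9 genes whose windows they overlap, hoxa9a, hoxb9a and hoxa9b, had 0.13, 0.20 and 0.09. The shared lengths of these pairs were 1518, 26 and 1972 bp, so mir196b and hoxb9a share almost no sequence. mir196c had 0.04. The even-skipped genes, homeobox relatives that lie beyond group 13, had differences below 0. evx2, beside hoxd13a, differed by -0.21 ± 0.07 (SE, limma adjusted p = 0.0701, and 0.02 with the block), and evx1 and eve1 by -0.09 and -0.08. hnrnpa1a, an RNA-binding protein gene beside hoxc13b, was the only one of the 31 called without the block, at 0.52 ± 0.08 (SE, limma adjusted p = 0.000262), and was named after its values were seen, as was bc2, beside hoxbb, at 0.19 (adjusted p = 0.113, and 0.0415 with the block). A wider list of cluster neighbours and ParaHox genes held 22 tested genes. None was higher and 1 was lower (4.5%), against 8.02% and 3.58% of all tested windows. The lower gene was cbx1b, a heterochromatin protein gene, which fell by 0.23 (limma adjusted p = 0.0486). That call was lost without any 1 of the 6 replicates (0.068 to 0.174) and after cyclic loess normalization (0.111). With the block the list had 1 higher, snx11 at 0.57 (adjusted p = 0.0637, and 0.0036 with the block). Its mutants varied widely, at 7.65 ± 0.35, against 7.08 ± 0.05 in the wildtype samples (SD). With the block 3 were lower, cbx1b, evx2 and mir10d, the last at -0.20 (0.114, and 0.0373 with the block). Not all of these genes lie near a measured cluster. The windows of cbx1b (from 28764754) and snx11 (from 20492221), on chromosome 12, lay more than 100 kb from hoxbb. mir10d lay on chromosome 6, without a measured hox gene.

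Genes that work with hox proteins or set their expression were called in both directions. For all lists below, the shares over all tested windows are 8.02% higher and 3.58% lower, and 14.0% and 9.47% with the block. Of 12 tested genes of the TALE homeodomain cofactors (pbx, meis and pknox), which bind DNA together with Hox proteins, 2 were higher (16.7%) and 1 lower (8.33%), with a median difference of 0.08, which was -0.02 after cyclic loess normalization. With the block 3 were higher, with meis1b added at 0.16 (limma adjusted p = 0.294, and 0.0462 with the block). pbx4, the main partner of Hox proteins in the zebrafish hindbrain, had 10.26 ± 0.14 in the mutants and 9.84 ± 0.10 in the wildtype samples (SD) and rose by 0.42 ± 0.09 (SE, limma adjusted p = 0.0037). After cyclic loess normalization its difference was 0.22 (adjusted p = 0.0424), still called. meis2a rose by 0.28 (adjusted p = 0.0306) and pknox2 fell by 0.23 (adjusted p = 0.0493). These 2 calls were lost after cyclic loess normalization (adjusted p = 0.406, with meis2a at 0.09, and 0.0986 for pknox2). Both were also lost without mutant replicate 2 (0.101 and 0.096) or 3 (0.123 and 0.112) and without wildtype replicate 1 (0.115 and 0.0616), 2 (0.0512 and 0.208) or 3 (0.113 and 0.126), and that of pknox2 without mutant replicate 1 (0.0722).

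Among 27 tested regulators of hox expression (cdx genes, retinoic acid synthesis, breakdown and receptors, hindbrain patterning genes and genes of trithorax complexes), 2 were higher (7.41%) and 3 lower (11.1%), at a median of 0.01, which was -0.05 after cyclic loess normalization. With the block 3 were higher and 4 lower, with rxrba added at 0.23 (limma adjusted p = 0.0535, and 0.021 with the block) and gdf11 at -0.18 (0.138, and 0.0374 with the block). cyp26b1, an enzyme that breaks down retinoic acid, had 7.85 ± 0.01 in the mutants and 8.21 ± 0.04 in the wildtype samples (SD) and fell by 0.36 ± 0.07 (SE, limma adjusted p = 0.0033), and this call held in every setting tried. aldh1a2, which makes retinoic acid, lay at -0.05 (adjusted p = 0.784). The retinoic acid receptor gene rarab rose by 0.28 (adjusted p = 0.041), gbx2, of the anterior hindbrain, fell by 0.25 (0.0341) and wdr5, of the trithorax complex, rose by 0.24 (0.0415). Each of these 3 calls was lost without mutant replicate 3 (0.18, 0.105 and 0.088) or wildtype replicate 1 (0.192, 0.0672 and 0.0647), 2 (0.0648, 0.133 and 0.177) or 3 (0.0765, 0.113 and 0.129). Without mutant replicate 2 those of rarab (0.0746) and wdr5 (0.119) were lost, and without mutant replicate 1 that of gbx2 (0.0504). After cyclic loess normalization rarab and wdr5 were not called either (adjusted p = 0.158 and 0.749), with wdr5 at 0.05. The third lower gene, rxrgb, a retinoid X receptor, was named after its values were seen and fell by 0.24 (adjusted p = 0.0462), a call lost without any 1 of the 6 replicates (adjusted p 0.0554 to 0.208) and after cyclic loess normalization (0.0596).

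Marker genes of tissues in which hox genes are or are not used were counted in the same way. The neural progenitor list (60% higher, 20% lower) and the neuron list (38.5% lower) lay furthest from the shares over all windows. The forebrain and midbrain, tailbud and somite, and fin bud lists had at most 1 call in each direction without the block. Of 10 tested neural progenitor genes 6 were higher and 2 lower, with or without the block, with summed log2 signal of 94.04 to 94.25 in the mutants and 90.37 to 91.70 in the wildtype samples. The SoxB1 genes sox19a, sox3 and sox2, which maintain neural progenitors, rose by 1.04, 0.88 and 0.78. The lower genes were gfap and fabp7a, both of radial glia, which fell by 0.39 (limma adjusted p = 0.0034) and 0.29 (0.0407). The call of fabp7a was lost without mutant replicate 2 (0.133) or 3 (0.15) and without wildtype replicate 1 (0.142), 2 (0.134) or 3 (0.0557). After cyclic loess normalization 4 were higher and 1 lower, since her9 (0.241), her6 (0.616) and fabp7a (0.0807) were no longer called, and the list's median difference was 0.13, against 0.34 as deposited.

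Of 13 neuron genes none was higher and 5 were lower, with sums of 101.60 to 102.27 in the mutants and 103.79 to 104.71 in the wildtype samples. neurod1 and elavl4, of differentiating neurons, fell by 0.41 and 0.38. mnx1 and isl2b fell by 0.30 and 0.28 (limma adjusted p = 0.0126 and 0.0231). The call of mnx1 was lost without mutant replicate 3 (0.0636) or wildtype replicate 1 (0.0575) or 2 (0.064). That of isl2b was lost without mutant replicate 2 (0.0522) or 3 (0.0532) or wildtype replicate 1 (0.101) or 3 (0.112). With the block 7 were lower, with isl1 added at -0.24 (limma adjusted p = 0.0551, and 0.011 with the block) and tubb5 at -0.23 (0.0747, and 0.0212 with the block).

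Of 12 tested genes on the forebrain and midbrain list, chosen as markers of regions without hox expression, 1 was higher and 1 lower. These were six3b, which rose by 0.40, and emx3, which fell by 0.47. The otx and en2 genes of that list were not among the tested genes. Sums were 93.18 to 93.57 in the mutants and 94.05 to 95.01 in the wildtype samples. With the block 3 were lower, with rx2 added at -0.29 (limma adjusted p = 0.0625, and 0.0049 with the block) and rx3 at -0.22 (0.0879, and 0.0251 with the block). Of 14 tailbud and somite genes none was called without the block, with sums of 94.68 to 95.93 in the mutants and 95.56 to 96.30 in the wildtype samples, and msgn1, at -0.26, was lower with it (limma adjusted p = 0.0893, and 0.0212 with the block). At an unadjusted p under 0.05, 1 tailbud or somite gene was higher and 1 lower. Of 8 genes of the fin bud and lateral plate none was higher and 1 was lower, with sums of 54.44 to 55.08 in the mutants and 55.45 to 55.79 in the wildtype samples. That gene, pitx1 of the hindlimb field, fell by 0.28 (limma adjusted p = 0.018), a call lost without mutant replicate 3 (0.092) or wildtype replicate 1 (0.0852) or 2 (0.0506). With the block 1 was higher, prdm1a at 0.25 (adjusted p = 0.129, and 0.0281 with the block), and 3 were lower, pitx1, tbx4 at -0.24 (0.05004, and 0.0171 with the block) and hand2 at -0.19 (0.102, and 0.039 with the block). None of the tested markers was listed at 0. The part of these tissues in the hox differences was not tested.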

How the data were processed

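ATAC-seq libraries of supt16h mutant and wildtype sibling embryos, 6 per group, were analysed. Each library column holds normalized log2 signal deposited by the authors, with the transformation not named. Per the file headers, columns carry a group, a biological number and a technical number. The submitters' processing notes name CASAVA 1.8, FastQC 0.11.2, HOMER 4.9 and the build GRCz10 (danRer10). The aligner, the read filters and any Tn5 shift were not given in the sources used here. The authors' deposited table also holds a log2 fold change, p-values and adjusted p-values from a test it does not name. No counts are given, so depth is unknown and no interval that needs it is printed.

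The 16555 entries were collapsed to 15674 windows, and 548 of 567 unnamed entries were named through RefSeq accessions. Windows with a mean of at least 4 were tested (15431) on means of technical repeats, 3 against 3, with limma 3.58.1 in R 4.3.3. The trend and robust options were used, with Benjamini-Hochberg adjustment over all windows and a threshold of 0.05. The fit was checked on simulated data. The simulated differences were larger than any hox difference, and simulated replicates of the same number shared no deviation. That check therefore does not cover differences of hox size or the pairing. Same-numbered mutant and wildtype replicates deviated together (Pearson r = 0.46, 0.51 and 0.53 over windows), so the replicate block is given where it changes a call of a hox gene or of a listed gene. The numbers' meaning is not stated in the labels. That biological replicates came from separate clutches is not stated either, so p-values measure the spread between these samples. Members and lists were chosen with earlier results of these data known. Genes given in full were those called with or without the block and the highest and lowest of each letter, and of the other lists up to 4 called genes with the largest differences. Other normalizations, signal filters, library handling and left-out replicates were tried. Replicates were left out only in fits without the block, which ignore the shared replicate number. Distal elements were not analysed here. Figures were drawn with matplotlib 3.10.9.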

Additional observations from a re-analysis of the deposited data

How the results depend on the processing

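The count of hox genes called higher (2) and lower (0) depended on the setting. It was 10 and 2 with the replicate block, where 3621 windows were called in all. It was 11 and 3 with the 12 libraries kept apart (2969 windows), a fit that counts technical repeats as independent samples. It was 7 and 1 with cyclic loess normalization and the block together (3208 windows), a setting chosen after seeing the data. By the adjusted p of the authors' deposited table, with directions taken from the library columns, it was 11 and 2. A filter at a mean of 6 gave 4 and 1, equal library medians 7 higher, and quantile or cyclic loess normalization 1 higher. Over all windows the main fit called 1238 higher and 552 lower. The filter at 6 called 1326 and 597, and equal medians 1568 and 379. Quantile normalization called 973 and 772, and cyclic loess 1013 and 706. Leaving out 1 replicate, without the block, gave 0 to 10 higher and 0 lower. These fits called 1056 to 2223 windows in all, against 1790. The 10 came without mutant replicate 1, and 0 came without mutant replicate 3 or wildtype replicate 1 or 2.

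The median difference of paralog groups 1 to 3 was 0.11 after quantile, 0.12 after cyclic loess (also with the block) and 0.17 with equal library medians, and 0.14 to 0.18 without 1 replicate. That of group 13 was -0.14, -0.13 and -0.15 in these settings, and -0.21 to -0.14 without 1 replicate. Of 721 differences of single hox genes under other settings, 13 changed sign, at 8 genes with differences near 0. Many of the 721 could not change. The block, the libraries kept apart, the signal filters and limma without its trend and robust options leave the difference itself as it was. Cyclic loess with the block repeats the differences of cyclic loess alone. hoxb7a was 0.028 with equal medians. Without 1 replicate, hoxb7a ranged from -0.040 to 0.059, hoxc13b from -0.043 to 0.078, hoxc10a from -0.022 to 0.076, hoxc5a from -0.0084 to 0.11, hoxc6a from -0.013 to 0.058, hoxd12a from -0.022 to 0.023, hoxc3a from -0.080 to 0.0030 and hoxd11a from -0.034 to 0.089. Over all windows 69.2% of calls were higher in the mutants, against 59.7% with the block, 55.8% after quantile and 58.9% after cyclic loess normalization, and 80.5% with equal medians. The causes were not tested. The block changed no other hox call than those named. The log2 values carry no read counts, so the depth behind a window, and how far low signal limits a difference, is unknown.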
